A study of Homo sapiens with 27 samples.

Results

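The nuclear pore genes described here are 34 genes for proteins of the nuclear pore and for the transport receptors that pass through it. They were taken by symbol from a list of pore components, and 34 of 34 were present in the deposited table of 23228 gene symbols. All 34 passed the filter on low values in each line. RNA was sequenced from 3 human castration-resistant prostate cancer cell lines, labelled DU145-DR, 22Rv1-DR and ARCaPM-DR and marked Ch-CRPC; the labels expand neither term. Cells held a random control hairpin (Control) or a hairpin aimed at the mRNA of the transcription factor GATA2, of which there were 2 (shGATA2a and shGATA2b). Each of the 9 groups had 3 replicates, which gives 27 libraries. All groups, controls included, carry a short hairpin RNA, and each line stands for 1 cell background. No source used here gives the vector that carried the hairpins or the time after its introduction, or says whether replicates were separate cultures. The comparison asked which genes change when GATA2 is lowered in these cells.

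The nuclear pore is a large ring-shaped channel through the nuclear envelope, built from many copies of proteins called nucleoporins. Scaffold nucleoporins form the outer rings (the Y complex) and the inner ring, membrane nucleoporins anchor them, and nucleoporins rich in phenylalanine-glycine repeats fill the channel. Importins and exportins carry proteins through that mesh under control of the small GTPase Ran, while mRNA leaves with the help of factors on the cytoplasmic face.

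Among the members, POM121 and POM121C needed a look at sequence first, because these membrane nucleoporins are near-identical copies. Of the 50-base words in the longest coding transcript of POM121 (GENCODE 29), 65.7% also occurred in transcripts of other genes, and 25.7% in POM121C. For POM121C the share in other genes was 63.3%, with 52.1% in POM121. A read that lies within such a word matches more than 1 gene, so the values of both genes are uncertain wherever the authors' counting split such reads. Longer or paired reads may reach past a shared word, and how many reads were affected was not tested. The start regions below, from RefSeq on GRCh38.p14 (250 bases before to 50 after the annotated start), show how close the copies are. POM121 has 2 annotated starts, at chr7:72879107-72879406 (plus strand) and chr7:72924845-72925144 (plus strand), and POM121C has 1, at chr7:75486250-75486549 (minus strand). Capitals mark the longest run that the first POM121 start shares with POM121C (51 bases), and in the second start a GATA word.
POM121 first start: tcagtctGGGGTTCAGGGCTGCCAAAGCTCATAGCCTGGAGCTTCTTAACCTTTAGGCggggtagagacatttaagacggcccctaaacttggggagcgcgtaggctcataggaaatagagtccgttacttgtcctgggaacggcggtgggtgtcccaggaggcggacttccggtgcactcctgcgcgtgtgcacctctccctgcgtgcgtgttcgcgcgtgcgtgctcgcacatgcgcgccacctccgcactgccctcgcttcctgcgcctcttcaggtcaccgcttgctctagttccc
POM121C start: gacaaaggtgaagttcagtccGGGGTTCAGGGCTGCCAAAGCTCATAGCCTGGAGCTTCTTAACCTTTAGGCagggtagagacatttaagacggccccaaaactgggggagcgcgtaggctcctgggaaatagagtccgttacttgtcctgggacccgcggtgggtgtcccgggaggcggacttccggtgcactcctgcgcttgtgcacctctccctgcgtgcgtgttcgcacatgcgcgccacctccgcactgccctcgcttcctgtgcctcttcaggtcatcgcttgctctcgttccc
POM121 second start: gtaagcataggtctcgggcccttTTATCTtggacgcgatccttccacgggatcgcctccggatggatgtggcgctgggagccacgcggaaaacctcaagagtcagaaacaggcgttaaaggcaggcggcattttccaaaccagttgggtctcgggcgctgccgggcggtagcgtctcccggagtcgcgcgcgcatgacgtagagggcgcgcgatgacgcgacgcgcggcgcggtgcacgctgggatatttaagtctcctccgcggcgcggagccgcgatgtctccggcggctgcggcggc
The first POM121 start matched POM121C at 273 of 286 aligned bases (95.5%), whereas the second shared a run of at most 8 bases with it. A GATA word was AGATAA on its own, or the variant AGATAG, or else the word TGATAA, or finally its variant TGATAG, searched on both strands and allowing overlaps. The word in the second POM121 start is TTATCT, which reads AGATAA on the other strand. Such a word was in at least 1 start region of 9 of the 30 members with an entry, and in 25.0% of all 35116 start regions of that length. Some members have more than 1 start region. A match is a description of letters and not of a binding site. The members without an entry were GLE1, NUP43, AHCTF1 and KPNB1.

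The other members shared fewer words with other genes. The share was 48.4% for AHCTF1, 31.4% for NUP62, 29.8% for NUPL2, 27.1% for RANBP2, 17.3% for KPNA2, 16.4% for NUP88 and 15.7% for NUP50, and under 10% for every remaining member. It was 1.62% for GLE1 and 0% for NUP210. Counting only genes whose symbol was in the deposited table, the share was 0% for AHCTF1, NUPL2, KPNA2 and NUP50. For RANBP2, NUP62 and NUP88 it was then 27.1%, 21.6% and 16.4%.

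The values are normalised read counts, that is reads per gene divided by 1 factor per library. Recovered reads ran from 3.44 M to 19.4 M per library (median 12.87 M), with ARCaPM-DR shGATA2a replicate 3 the shallowest. Library 22Rv1-DR Control replicate 3 stood apart: it held the highest or lowest of the 9 values of its line in 57.7% of genes, against 6.9% to 25.3% for the other 8, and in 17 of 34 members. It was lowest for 11 members, such as NUP35, and highest for 6, such as TPR. The shallow ARCaPM-DR shGATA2a replicate 3 held the highest or lowest value of its line in 41.5% of genes (9.1% to 33.3% for the other 8 there) and in 13 of 34 members. It was highest for 7 of these and lowest for 6, and without it 7 members were called in ARCaPM-DR, as with it. Genes called there ran from 1179 to 3545 over the fits without 1 library, against 2418 with all. The equal count of members therefore does not show that this library had no effect. KLK3, a luminal prostate gene, was listed at 0 in every control library but those of 22Rv1-DR, and all 5 blood cell markers were under 10 in every group. In ARCaPM-DR the summed level of 6 fibroblast markers was 2368 to 4777 in controls, 7675 to 14936 with shGATA2a and 5691 to 11447 with shGATA2b. Of the 6, 4 were under 10 in all 3 controls, and COL3A1 passed the test (log2 change 2.01, adjusted p = 0.0088). In DU145-DR, 6 endothelial markers summed to 11.1 to 15.0 in controls, 32.4 to 54.9 with shGATA2a and 22.9 to 31.9 with shGATA2b; 1 was listed at 0 in all libraries of each group, and KDR (1.34) and ROBO4 (1.46) rose. The part of these markers in the results below was not tested.

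As deposited, GATA2 itself, the target of the hairpins, was lower in all 6 knockdown libraries than in all 3 controls of each line. Of its 9 values, 5 in DU145-DR and 7 in 22Rv1-DR were not whole numbers of reads, as described below. In ARCaPM-DR, where every GATA2 value was a whole number of reads, it averaged 157 ± 14.4 (SD, n = 3) in controls and 27.2 ± 10.7 (SD, n = 6) under both hairpins. As deposited, its log2 change was -1.86 for DU145-DR (adjusted p = 5.54e-05), -1.71 for 22Rv1-DR (0.0257) and -2.56 for ARCaPM-DR (8.78e-05).

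Some deposited values were not whole numbers of reads, and values of GATA2 and POM121 were among them. When divided by what 1 read is worth in its library, 99.954% of 433407 values above 0 came out whole within 0.005 reads. The remaining 199 values lay in 58 genes. Members held 13 of them: 12 for POM121 and 1 for POM121C. No source used here says how they arose.

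For POM121 the affected values were 1 in DU145-DR (shGATA2b replicate 2), 8 of 9 in 22Rv1-DR and 3 in ARCaPM-DR (the 3 shGATA2a libraries). For all 13 member values, exactly 1 multiple of 100, out of 20 tried on each side of 0, led to a whole number of reads when it was taken away (tolerance 0.0005 reads). Multiples of 70, 90 and 110 did so for 0 of the 13 values, and multiples of 130 for 1. The offsets ran from 100 to 1000 in size. They were above 0 in 3 of 3 control values and below 0 in 10 of 10 knockdown values. Over all genes, 142 of the 199 values had exactly 1 such offset. GATA2 held 5 values that were not whole in DU145-DR and 7 in 22Rv1-DR. With offsets removed, and 2 DU145-DR values without a single offset set to missing, its log2 change was -1.49 in DU145-DR (adjusted p = 2.34e-04) and -0.72 in 22Rv1-DR (adjusted p = 0.288; 0.0583 with the replicate number as a block). Results for POM121 and POM121C are therefore given as deposited and without the offsets, a choice made after seeing the data.

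In DU145-DR, 5 of 34 members rose and 2 fell after GATA2 knockdown, against 8.72% of 13362 genes that rose and 7.98% that fell (16.7% called in all). The risers were NUPL1 of the central channel, NUP50 of the nuclear basket, NUP155 of the inner ring, the import adaptor KPNA2 and the mRNA export factor RAE1. POM121 and POM121C were the members that fell, and with their shared words they may not be separate observations. The members' median log2 change was 0.10, that of all genes -0.0020. With the replicate number as a block, 8 members rose and 4 fell, against 38.8% of genes called. In bulk RNA, fewer cells with a transcript and less of it per cell cannot be told apart, here and below.

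In ARCaPM-DR, 1 member rose and 6 fell, against 9.86% of 13079 genes that rose and 8.62% that fell (18.5% in all). The member that rose was SEH1L of the Y complex. GLE1, NUP210, POM121, NUP214, NUP93 and the import receptor KPNB1 fell. The median log2 change of the members was -0.05. With round offsets removed, POM121C joined the members that fell, which made 7.

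In 22Rv1-DR, 0 of 34 members passed the test in limma, against 0.124% of 13757 genes that rose and 0.276% that fell (0.4% in all). GATA2 itself did not pass in this line once its offsets were removed, so how far it was lowered there is uncertain. At an unadjusted p under 0.05 there were 3 members (10% of genes), against 10 in DU145-DR (32.1% of genes) and 13 in ARCaPM-DR (33.3%). edgeR on the recovered reads called 0 members. DESeq2 called 1, POM121 as deposited, and the number of genes it called is given below. Limma with the replicate block also called POM121 alone, against 1.21% of genes in that fit. Over 16 settings with all libraries, which include edgeR and DESeq2, genes called in this line ran from 1 to 224.

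**Figure D1:**
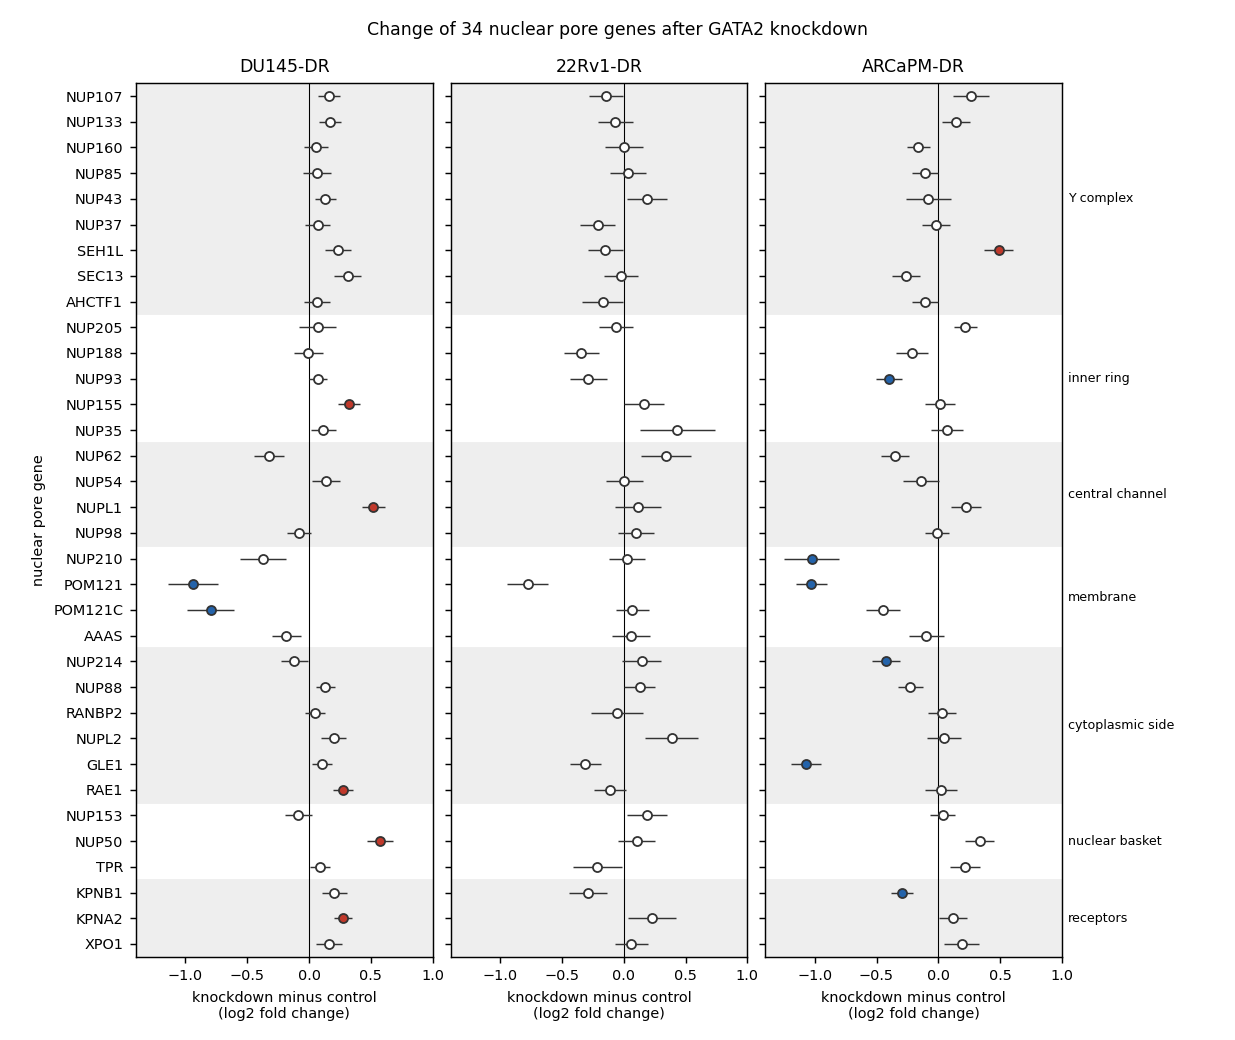
Log2 change (knockdown minus control, x axis) of each of the 34 members (y axis, grouped by role) in the 3 lines, with standard errors as bars; filled points passed an adjusted p of 0.05 in limma, red for higher and blue for lower. Filled points number 7 in each of DU145-DR and ARCaPM-DR and 0 in 22Rv1-DR, and POM121 is plotted as deposited.

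The Y complex, the scaffold of the outer rings, held 9 members. In DU145-DR 0 of 9 passed the test, with changes from 0.06 to 0.31, all above 0. With the replicate block, SEH1L (adjusted p = 0.0173) and SEC13 (0.0040) passed there. In 22Rv1-DR 0 of 9 passed, with changes from -0.21 to 0.19. Under ARCaPM-DR knockdown the changes ran from -0.26 for SEC13 to 0.49 for SEH1L, and 1 of 9 passed.

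SEH1L also belongs to a complex that regulates growth signalling at the lysosome. In ARCaPM-DR its normalised read counts were 1436, 1602 and 1212 in controls, 1929, 1846 and 1807 with shGATA2a, and 1802, 2341 and 2166 with shGATA2b. All 6 knockdown libraries lay above all 3 controls. Its log2 change was 0.49 ± 0.12 (SE, adjusted p = 0.0206), and the call was lost when Control replicate 1, Control replicate 3 or shGATA2a replicate 1 was left out (adjusted p up to 0.0969). SEC13, which also coats vesicles that leave the endoplasmic reticulum, passed in no line, with log2 changes of 0.31 in DU145-DR (adjusted p = 0.0716) and -0.26 in ARCaPM-DR (adjusted p = 0.133). The remaining Y complex members (NUP107, NUP133, NUP160, NUP85, NUP43, NUP37 and the chromatin-binding AHCTF1) had log2 changes from -0.21 to 0.26 across the 3 lines and passed in none.

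The inner ring held 5 members. NUP155, which links the ring to the membrane, read 2866, 2872 and 3610 in DU145-DR controls, 3881, 4041 and 4149 with shGATA2a, and 3932, 3744 and 3514 with shGATA2b. Control replicate 3 overlapped the knockdown libraries. The log2 change was 0.32 ± 0.09 (SE, adjusted p = 0.0291), and it no longer passed without Control replicate 1 or 2, shGATA2a replicate 2 or 3, or shGATA2b replicate 1 (adjusted p up to 0.152). The call was also lost after quantile normalisation (0.25, adjusted p = 0.0585), without an intensity trend (adjusted p = 0.0628) and in 1 fit of all 27 libraries (0.168).

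NUP93, the central linker of the inner ring, read 1873, 1587 and 1497 in ARCaPM-DR controls, 1242, 1177 and 1065 with shGATA2a, and 1403, 1255 and 1367 with shGATA2b. Every knockdown library lay below every control. It fell by 0.40 on the log2 scale (SE 0.11, adjusted p = 0.0282), a call lost without Control replicate 1 or 2 or any 1 of the shGATA2b libraries (adjusted p up to 0.131). In 22Rv1-DR its change was -0.29 (adjusted p = 0.533) and in DU145-DR 0.07. NUP188 was at -0.34 in 22Rv1-DR (adjusted p = 0.457), and NUP205 and NUP35 passed in no line. NUP35 in 22Rv1-DR, at 0.43 (adjusted p = 0.609), had Control replicate 3 at 47.3 beside 143 and 124 in the other controls.

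The central channel held 4 members. NUPL1 (now NUP58), a partner of NUP54 and NUP62 in the channel, read 1326, 1298 and 1602 in DU145-DR controls. Its values were 2098, 2149 and 2203 with shGATA2a and 2073, 1763 and 1826 with shGATA2b. All 6 knockdown libraries exceeded all 3 controls. Its log2 change was 0.52 ± 0.09 (SE, adjusted p = 0.0030, exact permutation p = 0.0119, the smallest that 84 splits allow), and it passed without any single library. In 22Rv1-DR and ARCaPM-DR it was 0.12 and 0.22, and neither passed.

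NUP62, the most studied of the channel nucleoporins, did not pass. Its changes were -0.33 in DU145-DR (adjusted p = 0.0835, 0.0016 with the replicate block), 0.34 in 22Rv1-DR (0.558) and -0.35 in ARCaPM-DR (0.0542). NUP54 and NUP98 lay between -0.14 and 0.14 in all lines, and neither passed in any.

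Of the 4 membrane nucleoporins, 2 fell in DU145-DR (median log2 change -0.58) and 2 in ARCaPM-DR (median -0.73). Of all genes, 7.98% and 8.62% fell in these lines. POM121 and POM121C, the 2 that fell in DU145-DR, share much sequence and may not be separate observations, here and below. With round offsets removed, 3 fell in ARCaPM-DR (NUP210, POM121 and POM121C) and the median there was -0.47. NUP210, a single-pass membrane glycoprotein whose level varies between cell types, read 1130, 1436 and 892 in ARCaPM-DR controls. It read 446, 661 and 400 with shGATA2a and 643, 819 and 474 with shGATA2b. No knockdown library reached the lowest control. It fell by 1.02 on the log2 scale (SE 0.22, adjusted p = 0.0113), and the adjusted p rose to at most 0.0540 when Control replicate 1 or 2 was left out. The change in DU145-DR was -0.37 (adjusted p = 0.184, 8.59e-04 with the replicate block): controls read 1933, 2527 and 2746, and the knockdown libraries spanned 1330 to 2531. In 22Rv1-DR it was 0.03, with controls at 6764, 4946 and 5551.

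POM121, a membrane protein needed for new pores to form, read 528, 657 and 774 in DU145-DR controls, 293, 402 and 363 with shGATA2a, and 208, 366 and 442 with shGATA2b. All knockdown values were below all controls. The log2 change was -0.94 ± 0.20 (SE, adjusted p = 0.0089). With the single offset removed, which brings 366 to 466, it was -0.88 (adjusted p = 0.0182).

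In 22Rv1-DR the deposited POM121 values were 1850, 2802 and 2494 in controls, 1172, 1667 and 1423 with shGATA2a, and 1219, 1414 and 1377 with shGATA2b. The groups did not overlap, and the log2 change was -0.78 ± 0.17 (SE, adjusted p = 0.105, 0.0102 with the replicate block). Once the offsets were removed, the controls were 1750, 2002 and 1494, the shGATA2a libraries 1772, 2167 and 2023, and the shGATA2b libraries 1219, 1914 and 1977. The groups then overlapped, and the change was 0.06 ± 0.18 (SE, adjusted p = 0.912, 0.803 with the replicate block, exact permutation p = 0.798 over 84 splits). Of these 9 values, 1 (1219, shGATA2b replicate 1) was whole as deposited.

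In ARCaPM-DR the deposited POM121 values were 1333, 1418 and 1393 in controls, 686, 560 and 758 with shGATA2a, and 731, 765 and 594 with shGATA2b. Its log2 change was -1.03 ± 0.13 (SE, adjusted p = 6.43e-04). Without the offsets the shGATA2a libraries read 1186, 1560 and 1158, of which 1 lay above the highest control and the other two below the lowest, while the 3 shGATA2b libraries stayed below them. The change over both hairpins was then -0.55 ± 0.13 (SE, adjusted p = 0.0166). It was -0.10 for shGATA2a (adjusted p = 0.703) and -0.99 for shGATA2b (0.0023), and the hairpins differed by -0.90 ± 0.15 (SE, adjusted p = 0.0261). As deposited, the hairpins differed by 0.06 (adjusted p = 0.945).

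**Figure D2:**
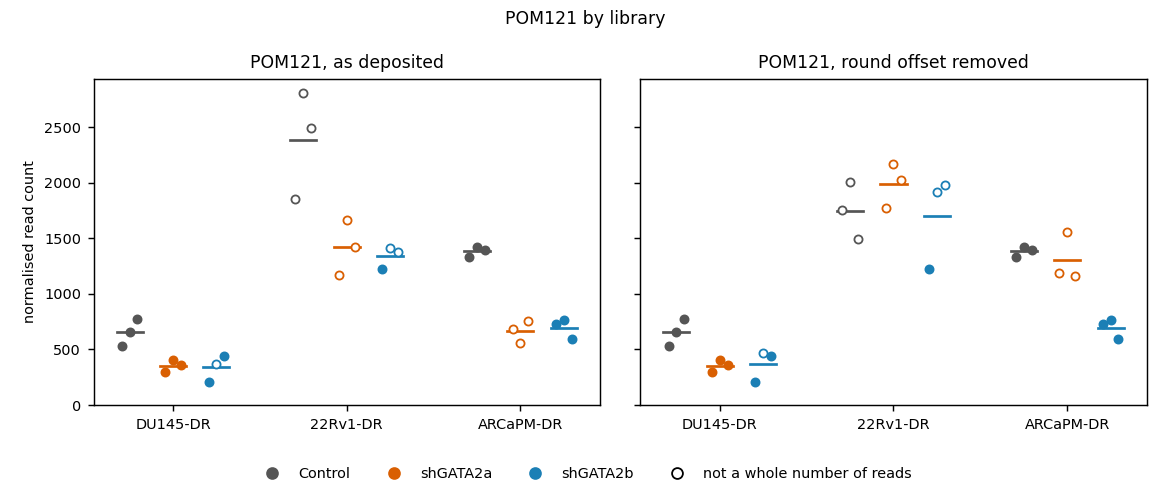
POM121 normalised read counts (y axis) in each library by line and group (x axis), as deposited (left) and with the round offsets removed (right); lines are group means and open points are values that were not a whole number of reads. In 22Rv1-DR the controls lie above the knockdown libraries on the left and overlap them on the right, where 1 of the 3 shGATA2a libraries of ARCaPM-DR (1560) also lies above its controls and the other two lie just below them.

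POM121C, with whole values in every library of DU145-DR and 22Rv1-DR, read 534, 550 and 686 in DU145-DR controls. Its values were 272, 356 and 409 with shGATA2a and 226, 374 and 443 with shGATA2b. Groups did not overlap, and it fell by 0.79 on the log2 scale (SE 0.19, adjusted p = 0.0146). The 22Rv1-DR change was 0.07 (adjusted p = 0.866), with controls at 2283, 2394 and 1853 and knockdown libraries from 2031 to 2416.

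In ARCaPM-DR, POM121C read 1050, 1027 and 1245 in controls, 924, 1047 and 721 with shGATA2a, and 761, 810 and 651 with shGATA2b. The libraries of shGATA2a overlapped the controls and those of shGATA2b did not. The log2 change was -0.45 ± 0.14 (SE, adjusted p = 0.0510). With the offset of 1 value removed, which brings 721 to 921, it was -0.39 ± 0.11 (adjusted p = 0.0409). AAAS, which tethers to the ring from the membrane side, was at -0.19 for DU145-DR, 0.06 for 22Rv1-DR and -0.10 for ARCaPM-DR and passed in none.

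The cytoplasmic side held 6 members. GLE1, which activates the helicase that strips export factors from mRNA, read 1380, 1482 and 1226 in ARCaPM-DR controls. It read 558, 768 and 665 with shGATA2a and 632, 676 and 599 with shGATA2b. The highest knockdown library lay well under the lowest control. GLE1 averaged 1363 ± 129 (SD, n = 3) in controls and 650 ± 72.5 (SD, n = 6) under both hairpins, a log2 change of -1.07 ± 0.12 (SE, adjusted p = 4.21e-04, exact permutation p = 0.0119, the smallest that 84 splits allow). The call held without any single library of the line (adjusted p up to 0.0051).

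In DU145-DR GLE1 did not pass: controls read 1249, 1190 and 1360 and knockdown libraries 1273 to 1461 (log2 change 0.10, adjusted p = 0.398). In 22Rv1-DR controls read 875, 718 and 873 and knockdown libraries 640 to 674, without overlap (log2 change -0.31, adjusted p = 0.449). Groups did not overlap for 6.94% of genes there. The exact permutation p of 0.0119 is the smallest that 84 splits allow and adds little to the lack of overlap.

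NUP214, the anchor of the cytoplasmic filaments, read 1787, 1808 and 1444 in ARCaPM-DR controls, 1120, 1391 and 1248 with shGATA2a, and 1237, 1321 and 1173 with shGATA2b. Groups did not overlap. It fell by 0.42 on the log2 scale (SE 0.11, adjusted p = 0.0294), and the call was lost without Control replicate 1 or 2, shGATA2a replicate 1, or shGATA2b replicate 1 or 3 (adjusted p up to 0.124). RAE1, which binds exported mRNA and NUP98, read 468, 406 and 432 in DU145-DR controls, 519, 533 and 513 with shGATA2a, and 527, 531 and 529 with shGATA2b. The 6 knockdown libraries were above the 3 controls and close to each other. Its log2 change was 0.27 ± 0.08 (SE, adjusted p = 0.0410), which passed in 0 of 9 fits that left out 1 library (adjusted p from 0.0541 to 0.192), nor in 1 fit of all 27 libraries (0.162). NUP88, RANBP2 and NUPL2 passed in no line. NUPL2 in 22Rv1-DR, at 0.39 (adjusted p = 0.542), had Control replicate 3 at 270 beside 567 and 514.

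Of the 3 nuclear basket members, NUP50, which speeds the release of cargo from importins inside the nucleus, read 1290, 1263 and 1680 in DU145-DR controls. It read 2032, 1918 and 2312 with shGATA2a and 1996, 2072 and 2205 with shGATA2b. Every knockdown library was higher than every control. Its log2 change was 0.58 ± 0.10 (SE, adjusted p = 0.0035, exact permutation p = 0.0119), and it passed without any single library. In ARCaPM-DR the groups also did not overlap between controls (1791, 1692 and 1573) and knockdown (1868 to 2515), but the change of 0.34 missed the threshold (adjusted p = 0.0737). NUP153 and TPR passed in no line. TPR in 22Rv1-DR read 7624 in Control replicate 3 and 4972 and 4228 in the other controls.

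The transport receptors were KPNA2 (importin alpha), KPNB1 (importin beta) and XPO1 (the main exportin). KPNA2 read 3981, 4099 and 4527 in DU145-DR controls, 5388, 5374 and 5155 with shGATA2a, and 4873, 4681 and 5038 with shGATA2b. Groups did not overlap, and the log2 change was 0.28 ± 0.08 (SE, adjusted p = 0.0258), lost without Control replicate 1 or 2, shGATA2a replicate 2 or shGATA2b replicate 3 (adjusted p up to 0.139). It also no longer passed after quantile normalisation, where it was 0.17 (adjusted p = 0.126), without an intensity trend (0.0519) or in 1 fit of all 27 libraries (0.318). KPNB1 in ARCaPM-DR read 13688, 13248 and 12287 in controls, 10910, 10488 and 11881 with shGATA2a, and 10395, 10357 and 10055 with shGATA2b. Every knockdown library was below every control. It fell by 0.29 (SE 0.09, adjusted p = 0.0486), and of the 9 fits that left out 1 library, only that without shGATA2a replicate 3 kept the call. It was lost too with no filter on low values (adjusted p = 0.104), without an intensity trend (0.0732) and in 1 fit of all 27 libraries (0.0915). In DU145-DR, KPNB1 read 5960, 6156 and 7873 in controls and 7085 to 8313 under knockdown, with overlap (log2 change 0.21, adjusted p = 0.176, 0.0158 with the replicate block). XPO1 read 5886 to 6766 in ARCaPM-DR controls and 5787 to 8943 under knockdown, and its log2 changes of 0.16 (DU145-DR), 0.06 (22Rv1-DR) and 0.19 (this line) did not pass.

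**Figure D3:**
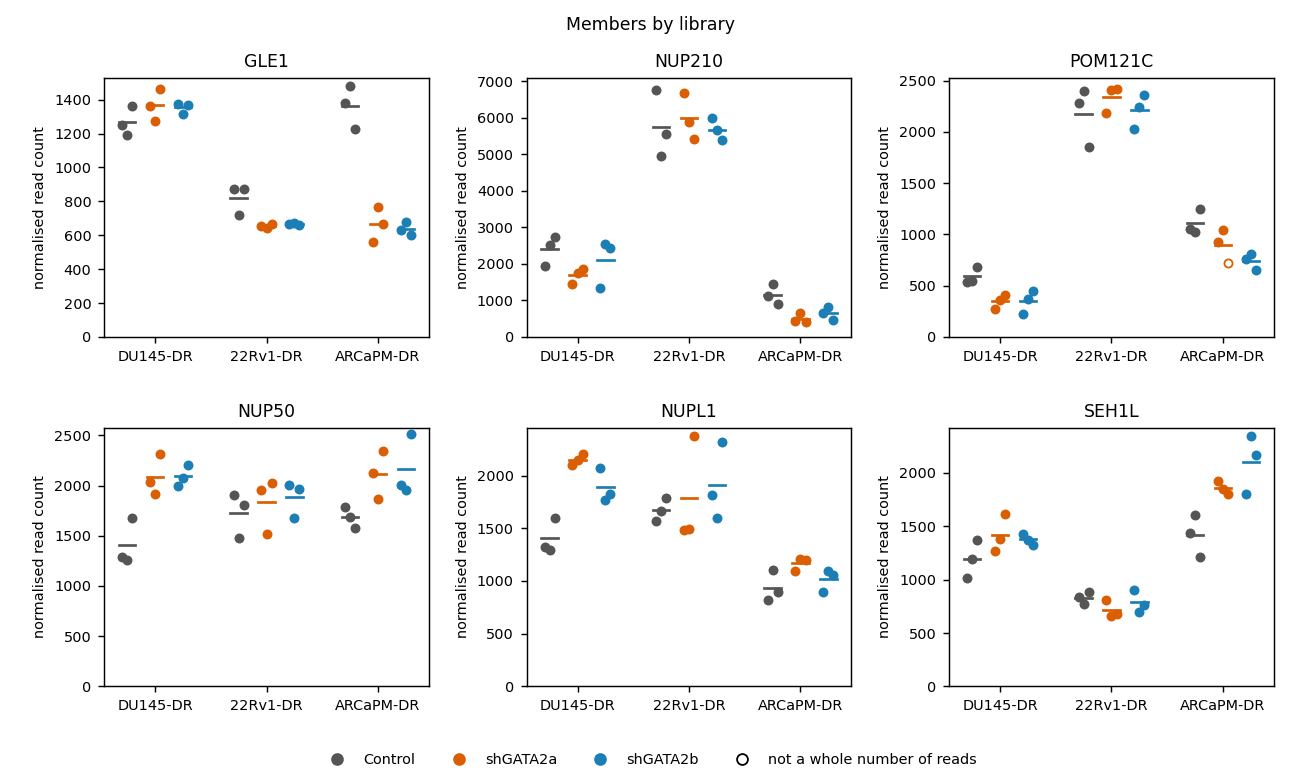
Normalised read counts (y axis) of 6 members in each library, by line and group (x axis); lines are group means, and the open point is a value that was not a whole number of reads. GLE1 and NUP210 are lower in all 6 knockdown libraries of ARCaPM-DR than in its 3 controls, and NUP50 and NUPL1 are higher in all 6 knockdown libraries of DU145-DR.

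Counted over members, the 6 knockdown and 3 control libraries did not overlap for 4 members higher and 2 lower in DU145-DR (18.7% of genes in either direction). The count was 1 higher (NUP88) and 2 lower (POM121 and GLE1) in 22Rv1-DR (6.94%), and 2 higher and 7 lower in ARCaPM-DR (21%). The 7 were NUP93, NUP210, POM121, NUP214, NUP88, GLE1 and KPNB1. These counts are for values as deposited. With round offsets removed POM121 dropped out of both, which left 1 lower in 22Rv1-DR and 6 lower in ARCaPM-DR. The number of members called moved with single libraries. It was 7 in DU145-DR and 4 without Control replicate 1, without Control replicate 2 or without shGATA2a replicate 2. In ARCaPM-DR it was 7, but 2 without Control replicate 1, 3 without Control replicate 2 and 4 without shGATA2a replicate 1, shGATA2b replicate 1 or shGATA2b replicate 3. The number of all genes called moved too. Over these fits it ran from 857 to 2440 in DU145-DR (2231 with all libraries) and from 1179 to 3545 in ARCaPM-DR (2418).

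Each hairpin was also set against the same 3 controls, so these values are not independent of each other. In DU145-DR, shGATA2a gave 4 members higher (NUPL1, NUP50, NUP155 and KPNA2) and 2 lower (POM121 and POM121C), against 16.1% of genes called. With shGATA2b, NUPL1 and NUP50 were higher and POM121 lower, against 5.81%. These are calls on values as deposited: with the offset removed, POM121 no longer passed for shGATA2b (-0.88, adjusted p = 0.0618). With the replicate block 12 members were higher and 4 lower for shGATA2a (38.1% of genes), and 7 higher and 3 lower for shGATA2b (26.3%). In ARCaPM-DR, also as deposited, GLE1, NUP210, POM121 and NUP93 were lower with shGATA2a (12.8% of genes called), and POM121 was not among them once its offsets were removed. With shGATA2b, GLE1, POM121, POM121C and NUP62 were lower and SEH1L higher (14.5%). GLE1 was at -1.04 with shGATA2a and -1.10 with shGATA2b, and NUP210 at -1.20 and -0.84 (adjusted p = 0.0536 for the second). In 22Rv1-DR neither hairpin gave a member past the threshold in limma, against 0% and 0.00727% of genes, and 3 members (shGATA2a) and 1 (shGATA2b) had an unadjusted p under 0.05, against 6.54% and 6.99% of genes. The replicate block gave 1 member for each hairpin, POM121 as deposited, against 0.603% and 0.48% of genes, and POM121 passed for neither with offsets removed (adjusted p = 0.567 and 0.855).

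The hairpins were then compared with each other. As deposited, 0 of 34 members differed between shGATA2b and shGATA2a in limma in any line, against 0% of genes in both DU145-DR and 22Rv1-DR and 0.803% for ARCaPM-DR. At an unadjusted p under 0.05 there were 2 members in ARCaPM-DR (11.4% of genes) and 0 elsewhere (5.89% of genes in DU145-DR and 0.0945% in 22Rv1-DR). The widest differences in ARCaPM-DR were -0.40 for KPNA2 and 0.36 for NUP210. POM121 without its offsets, given above, differed there.

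Whether the effect of knockdown differed between lines was tested in 1 fit of all 27 libraries. With offsets removed GATA2 itself did not pass in 22Rv1-DR, and the part of knockdown depth in these differences was not tested. GLE1 was the 1 member of 34 that passed the F test over the lines (adjusted p = 4.23e-05), against 7% of 15295 genes. With round offsets removed POM121C passed as well (adjusted p = 0.0496, as deposited 0.0607). The GLE1 change in ARCaPM-DR was lower than in DU145-DR by 1.18 on the log2 scale (SE 0.14, adjusted p = 1.21e-05), and lower than in 22Rv1-DR by 0.76 (adjusted p = 0.0031). Between ARCaPM-DR and DU145-DR, 3 members differed (7.13% of genes): GLE1, SEC13 (difference -0.58, adjusted p = 0.0291) and NUP93 (-0.47, 0.0459, and 0.0779 after quantile normalisation). Between ARCaPM-DR and 22Rv1-DR, 3 differed (3.39% of genes): GLE1, NUP210 (-1.05, 0.0397) and SEH1L (0.64, 0.0353, and 0.0531 after quantile normalisation). Between 22Rv1-DR and DU145-DR, 0 differed in limma (1.09% of genes), with 9 members at an unadjusted p under 0.05 (13.3% of genes), and POM121C was nearest (0.86, adjusted p = 0.0782). POM121 differed by 0.16 as deposited (adjusted p = 0.848) and by 0.95 with round offsets removed (adjusted p = 0.113). With the replicate block 6 members differed between this pair of lines (10.3% of genes). The differences for NUP210, NUP93, SEC13 and SEH1L were kept in 13, 9, 22 and 16 of 27 fits without 1 library, those for GLE1 in all 27.

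Control cells of the 3 lines also differed in the levels of many members. In 22Rv1-DR 23 of 34 members differed from DU145-DR, 7 higher and 16 lower, against 70.5% of genes. At least 2-fold higher were 5 members (26.2% of genes): POM121C (log2 difference 1.88), POM121 (1.86), NUP210 (1.26), NUP133 (1.07) and TPR (1.02). At least 2-fold lower were 6 members (22.3% of genes): NUP155 (-2.33), NUP35 (-2.22), NUP93 (-2.19), KPNA2 (-1.77), NUP214 (-1.51) and NUP188 (-1.20).

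Of the 5 inner ring members, 4 were thus at least 2-fold lower in 22Rv1-DR, while NUP205 differed by -0.01. NUP93 averaged 346 ± 46.8 (SD, n = 3) in 22Rv1-DR controls, 1570 ± 62.1 in those of DU145-DR and 1652 ± 196 for ARCaPM-DR. Its 22Rv1-DR libraries lay far under all others, and DU145-DR and ARCaPM-DR overlapped. NUP155 averaged 626 ± 134 in 22Rv1-DR, 3116 ± 428 for DU145-DR and 2433 ± 431 for ARCaPM-DR. NUP35, at 105 ± 50.6 in 22Rv1-DR, includes the low value of Control replicate 3. Without that library, 22 members differed from DU145-DR, against 23 with it, and the share of all genes in that fit was not computed. The POM121 difference rests on 3 control values that were not whole, and it was 1.43 with their offsets removed (adjusted p = 6.96e-06).

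ARCaPM-DR controls differed from DU145-DR in 14 members, 9 higher and 5 lower, against 59.9% of genes. At least 2-fold higher were RANBP2 (1.18), a filament protein that binds Ran on the cytoplasmic face, and POM121 (1.10), against 17.7% of genes. NUP210 was the 1 member at least 2-fold lower (-1.07, 19.1% of genes), and KPNB1 was 0.98 higher. ARCaPM-DR differed from 22Rv1-DR in 29 members, 21 higher and 8 lower (70.3% of genes), of which 8 were at least 2-fold higher (21% of genes) and 2 at least 2-fold lower (26.5%). The median difference of all genes in that comparison was -0.11, that of the members 0.50. For 22Rv1-DR minus DU145-DR the medians were 0.047 for all genes and -0.26 for the members. For ARCaPM-DR minus DU145-DR they were -0.046 and 0.16. Without 22Rv1-DR Control replicate 3, 27 members differed between ARCaPM-DR and 22Rv1-DR. With round offsets removed it was 28, since POM121 (-0.33, adjusted p = 0.209) no longer passed. The share of all genes in these fits was not computed. The order for NUP210 was 22Rv1-DR, DU145-DR, ARCaPM-DR, at 5754 ± 926, 2402 ± 421 and 1153 ± 273 (SD, n = 3 each), with no overlap between neighbours.

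**Figure D4:**
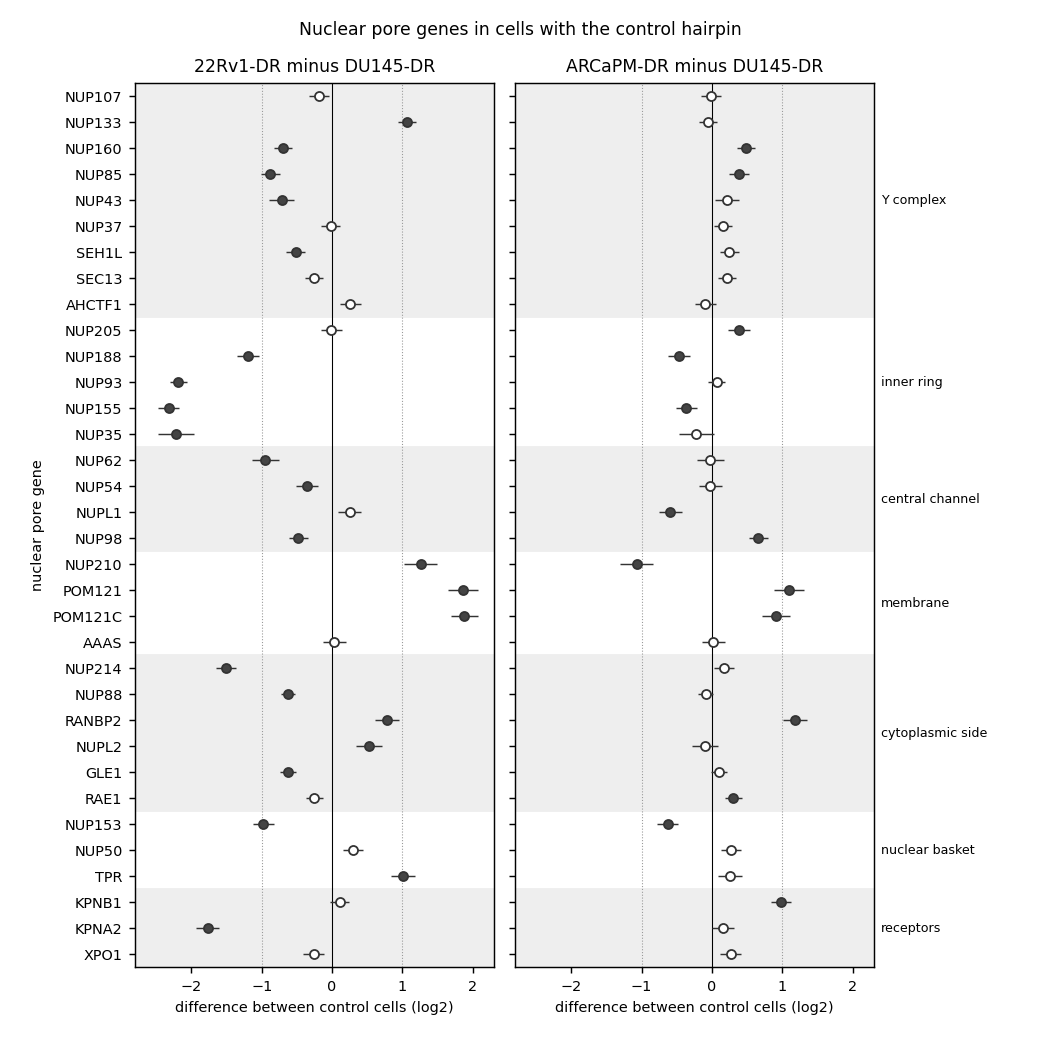
Log2 difference between control cells (x axis) of 22Rv1-DR (left) or ARCaPM-DR (right) and DU145-DR for each member (y axis, grouped by role), with standard errors as bars; filled points passed an adjusted p of 0.05 and dotted lines mark 2-fold. NUP155, NUP35 and NUP93 lie beyond -2 on the left, and RANBP2 and POM121 lie beyond 1 on the right.

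Other genes of nuclear transport were taken from lists of the pathway. Counts of genes called in these lists, here and below, stand beside 16.7% of all genes in DU145-DR and 18.5% in ARCaPM-DR. With the replicate block the share in DU145-DR was 38.8%. In 22Rv1-DR it was 0.4%, and 1.21% with the block. Of 16 measured importins other than the members, 2 rose in DU145-DR and 1 in ARCaPM-DR and 0 fell. With the replicate block 6 were higher and 1 lower in DU145-DR, the last being IPO4 (-0.52, adjusted p = 2.87e-05). KPNA5, an importin alpha, was the gene that rose in both, by 0.79 (adjusted p = 0.0031) and 1.02 (adjusted p = 8.68e-04). Of 6 further exportins, XPOT (tRNA export) rose by 0.36 in DU145-DR and XPO7 by 0.35 in ARCaPM-DR. Of 7 genes of the Ran cycle, 2 fell in ARCaPM-DR: RAN by 0.69 (adjusted p = 0.0045) and RCC1, its nuclear exchange factor, by 0.68 (adjusted p = 0.0011). RANBP3 fell by 0.57 in DU145-DR. With the replicate block, XPO4 (0.27, adjusted p = 0.0026) and RAN (0.17, 0.0347) also passed in DU145-DR.

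In the mRNA export list, THOC5 of the THO complex rose in DU145-DR (0.75) and ARCaPM-DR (0.79), PCID2 rose in DU145-DR (0.33), and DDX19B, the helicase that GLE1 activates, fell by 0.83 in ARCaPM-DR (adjusted p = 0.0208). These were the genes that passed of 17 tested in DU145-DR and 16 in ARCaPM-DR. The replicate block gave 4 higher and 1 lower in DU145-DR.

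Of 15 genes of the lamina and envelope, 2 rose and 1 fell in DU145-DR and 3 rose and 3 fell in ARCaPM-DR. BANF1, which ties chromatin to the envelope, rose by 0.79 and 1.45 in the 2 lines. LMNB1 rose by 0.46 in DU145-DR and TOR1AIP1, a lamina-associated membrane protein, fell there by 0.42. In ARCaPM-DR LMNB2 fell by 0.70, and SYNE1 and SYNE2, long linkers of the outer membrane, rose by 0.78 and 0.82. The other members that fell there were TOR1AIP1 and LBR, named after their values were seen. In the fit with the replicate block, 5 genes of this list were higher and 1 lower in DU145-DR. In 22Rv1-DR 0 genes of these 5 lists passed in limma, and 1 (BANF1, adjusted p = 0.0085) with the replicate block. The 3 BANF1 control values there were not whole, and each held an offset of -100. That lowers the controls and enlarges the rise, unlike the offsets above 0 in the control values of members.

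Pores are taken apart and rebuilt at each division, so 30 mitotic genes were read beside the members. In DU145-DR 8 rose and 2 fell (16.7% of all genes called), with a median log2 change of 0.08. With the replicate block 14 were higher and 4 lower (38.8% of genes called). The 4 with the smallest adjusted p were HMMR (0.65), BIRC5 (0.43), BUB3 (0.52) and FOXM1 (-0.83), and the FOXM1 controls were not whole numbers of reads (with offsets removed -0.54, adjusted p = 0.0322). In ARCaPM-DR 1 rose and 6 fell (median -0.19, 18.5% of genes called), led by BUB3 (0.64), MAD2L1 (-1.38), CENPF (-0.99) and AURKA (-0.57). By hairpin there, 2 rose and 3 fell with shGATA2a (12.8% of genes called), with a median of 0.02 and 16 of 30 above 0. With shGATA2b 1 rose and 8 fell (14.5%), with a median of -0.37 and 4 of 30 above 0. Set against each other gene by gene in ARCaPM-DR, 0 of the 30 differed between shGATA2b and shGATA2a in limma (0.803% of genes). The median difference was -0.37, with 1 of 30 above 0. With the replicate block 22 of 30 were lower with shGATA2b (12.5% of genes called), in a line where the numbers are not shown to pair the libraries. The list as a whole was not tested. In 22Rv1-DR 0 rose and 4 fell (median -0.38): CDK1, CENPF, NUSAP1 and PTTG1, each with at least 1 control value that was not whole. With the offsets removed 0 of these 4 passed (log2 changes from -0.23 to -1.03, adjusted p from 0.127 to 0.707). FOXM1 passed there as deposited under the replicate block (-0.84, adjusted p = 0.0081), and not with offsets removed (0.306). The part of these genes in the members' changes was not tested.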

How the data were processed

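RNA-seq was measured in 27 libraries, 3 per group. The authors deposited 1 table of signal values, which are normalised read counts per gene symbol. The submitters' processing notes name TopHat2 2.0.9, Cufflinks 1.3.0 and the builds hg19 and GRCh37, with no role for each. The counting program, the scaling tool and the strand setting are not stated in any source used. The table was read as reads divided by 1 factor per library, because 99.954% of values above 0 were whole multiples of 1 step per library; 0 columns were left unmapped.

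Genes that reached 10 in 3 or more of the 9 libraries of a line were kept, which retained all 34 members in each line. Log2(value + 1) was fitted in limma 3.58.1 (R 4.3.3) with an intensity trend, both hairpins averaged against control. All log2 changes refer to log2(value + 1), so those of weakly expressed genes are understated. P-values were adjusted by Benjamini-Hochberg over all genes of the fit, with a threshold of 0.05. Differences between lines came from 1 fit of 27 libraries. Exact permutation tests were two-sided, were run for few members and were not adjusted for the number of genes. The fit was also run on simulated counts with the same spread for all genes. These held no paired replicates, no outlying library and no offsets, so they cannot show how the fit handles such features. edgeR 4.0.16 and DESeq2 1.42.0 were run on recovered reads, rounded where not whole, as alternatives, beside other pseudocounts, filters, scalings and left-out libraries.

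Same-numbered libraries deviated together in DU145-DR (lowest correlation 0.28) and 22Rv1-DR (0.21), so block values are given beside members and pathway lists whose calls they change; in ARCaPM-DR the lowest was 0.06. The labels name no separate cultures, so p-values measure a spread that may be technical.

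The members and lists were chosen with earlier results of these data known. Values in every library are given for members that passed in at least 1 line, that held values not whole, or whose groups did not overlap with a log2 change of at least 0.5 in size, and for POM121C and the transport receptors. From each other list up to 4 genes per line with the smallest adjusted p are named.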

Additional observations from a re-analysis of the deposited data

Results flagged for a closer look

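The effect of GATA2 knockdown on 5 members differed between lines by limma's test of the difference itself, each over 27 libraries. Of 34 members, 3 differed between ARCaPM-DR and DU145-DR, against 7.13% of genes. Between ARCaPM-DR and 22Rv1-DR it was 3, against 3.39% of genes. GLE1 differed between ARCaPM-DR and DU145-DR by -1.175 on the log2 scale and between ARCaPM-DR and 22Rv1-DR by -0.7607; it was lower in all 6 ARCaPM-DR knockdown libraries than in the controls there. SEC13 differed between ARCaPM-DR and DU145-DR by -0.5752, and it passed the test of knockdown in neither line. For NUP93 the same difference was -0.4733, with an adjusted p of up to 0.177 when 1 library was left out. NUP210 differed between ARCaPM-DR and 22Rv1-DR by -1.051 (adjusted p up to 0.133 without 1 library), and SEH1L by 0.637 (up to 0.124). GLE1 kept both calls without any single library. Of the 5, GLE1 alone also passed the F test over all 3 lines, as did 7% of genes.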

How the results depend on the processing

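With the replicate number as a block, genes called numbered 5184 for DU145-DR, 166 for 22Rv1-DR and 5885 for ARCaPM-DR, and members 12, 1 and 16. In ARCaPM-DR the numbers are not shown to pair the libraries, since the lowest same-number correlation was 0.06 and 7 of 9 libraries correlated best with their own number. The block also gave 13 members whose effect differed between lines (1 without it), against 26.2% of genes (4003), and 3 members that differed between hairpins in ARCaPM-DR (AHCTF1, NUP210 and KPNA2), against 12.5% (1629 genes). With values that are not whole set to missing and the block, genes called were 5186 in DU145-DR and 5882 in ARCaPM-DR, and members 12 and 15. With round offsets removed and the block, a setting chosen after seeing the data, they were 5182 and 5884, and members 12 and 16. In DU145-DR the block added SEH1L, SEC13, KPNB1, NUP62 and NUP210, and in 22Rv1-DR POM121.

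One fit of all 27 libraries called 650 genes and 4 members in DU145-DR, and 224 genes and 1 member in 22Rv1-DR. DESeq2 called 185 genes and 1 member in 22Rv1-DR, limma without a trend 3 genes, and 1 gene was called there when genes with values not whole were left out, when such values were set to missing and when offsets were removed. A pseudocount of 0.1 gave 2 members that differed between lines, against 1 member and 7% of genes in the main fit. The share of genes with that pseudocount was not computed. POM121 in 22Rv1-DR changed sign to 0.0645 with offsets removed, with and without the block. Its value there, and in ARCaPM-DR, could not be estimated with such values set to missing.

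Leaving out 1 library at a time gave 857 to 2440 genes and 4 to 8 members in DU145-DR, 0 to 37 genes and 0 members in 22Rv1-DR, and 1179 to 3545 genes and 2 to 9 members in ARCaPM-DR. The low counts came without DU145-DR Control replicate 1 (939 genes) or 2 (857), and without ARCaPM-DR Control replicate 1 (1179), Control replicate 3 (1351), shGATA2a replicate 1 (1522) or shGATA2b replicate 1 (1588). Members that differed between lines numbered 1 to 5. With all libraries it was 1 member and 7% of genes, and the share of genes without 1 library was not computed. POM121C in 22Rv1-DR ran from -0.0424, without Control replicate 3, to 0.142. Settings moved the median of all genes only between -0.028 and 0.0157. Over the 16 settings with all libraries, genes called in ARCaPM-DR ran from 2184 to 5885, against 2418 in the main fit, and members from 6 to 16. TMM scaling, edgeR and DESeq2, which are among these settings, gave 9, 8 and 10 members there. Without the share of all genes in each fit, these counts are not a result about the members. Depth limits ARCaPM-DR shGATA2a replicate 3 most (3.44 M reads). The cause of these shifts was not tested.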
